A study of Mus musculus with 4 samples.

Results

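Fc receptors are the surface and endosomal proteins through which macrophages bind the constant part of antibodies. The 6 genes described here are Fcgr1, Fcgr4, Fcgr3, Fcer1g, Fcgr2b and Fcgrt. They were taken by symbol from the 22700 rows of each deposited library, and all 6 had 1 row in every library. Marrow was taken from male mice aged 12 weeks and its cells were cultured for 7 to 8 days with either 20 ng/ml of GM-CSF or 10 ng/ml of M-CSF. GM-CSF gives macrophages and cells with dendritic features, and M-CSF gives macrophages. The marrow donors were db/db mice (labelled BKS.Cg-m+/+leprdb/J, type 2 diabetic) or control db/+ littermates (labelled BKS.Cg-m+/+leprdb+/J), so every donor carried the leptin receptor mutation on at least 1 chromosome. The 4 groups were GM-CSF db/db, GM-CSF db/+, M-CSF db/db and M-CSF db/+, each with 1 library. The labels do not state how many animals went into a library.

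The receptors for IgG differ in affinity and in the signal they send. Fcgr1 encodes the high-affinity receptor CD64, Fcgr3 the low-affinity receptor CD16, and Fcgr4 a receptor of intermediate affinity for some IgG subclasses. These 3 activating receptors depend on the chain encoded by Fcer1g, which carries the ITAM, the tyrosine motif that recruits the kinase Syk and starts phagocytosis and cytokine release. Fcgr2b encodes the inhibitory receptor CD32B, whose tail carries an ITIM and recruits the phosphatase SHIP1. Fcgrt encodes the heavy chain of FcRn, an endosomal receptor that pairs with beta-2 microglobulin and returns IgG and albumin to the cell surface.

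The libraries held 25603389 to 28622706 reads, recovered from the deposited values, and levels are given as normalised reads, the deposited unit. Each of the 6 genes had at least 740 reads in every library. All 7 macrophage markers of a list were above 0 in every library, and 2 of them rose and 3 fell in GM-CSF (limma, adjusted p under 0.05). Their summed level was 747519 in GM-CSF db/db and 748642 in GM-CSF db/+, against 505328 in M-CSF db/db and 535147 in M-CSF db/+. Lyz2 (lysozyme) made up most of it in GM-CSF, at 621787 and 626680 in GM-CSF db/db and db/+, against 242719 and 250024 in M-CSF db/db and db/+. Csf1r, the M-CSF receptor, was 3.38-fold lower and Emr1 (F4/80) 8.66-fold lower in GM-CSF. Of 7 markers of GM-CSF cultures and dendritic cells 5 rose and 1 fell. Itgax, the integrin CD11c, was at 56259 and 56042 in the GM-CSF db/db and db/+ libraries, against 921 and 775 in the M-CSF db/db and db/+ libraries. Flt3, a receptor of dendritic cell progenitors, fell, at 0 in both GM-CSF libraries, against 76.7 and 53.3 in M-CSF db/db and db/+. Markers of other cell types were uneven between the cultures. Summed over 6 stromal markers, the level was 279 in GM-CSF db/db and 237 in GM-CSF db/+, against 70603 in M-CSF db/db and 25467 in M-CSF db/+, with 0 of the 6 at 0 in any library. The 7 measured neutrophil lineage markers summed to 863 and 748 in GM-CSF db/db and db/+, with 3 and 1 of them at 0 (Mpo and Camp at 0 in db/db, Retnlg at 0 in both), against 13205 and 12256 in M-CSF db/db and db/+, with 0 at 0. The 6 endothelial markers went the other way in sum. They were at 2209 and 2380 in GM-CSF db/db and db/+, against 795 and 726 in M-CSF db/db and db/+. Of the 3 endothelial markers tested, 2 rose and 1 fell. In RNA of whole cultures, fewer cells of a type and less RNA per cell cannot be told apart.

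The sequences before the gene starts are shown for the 3 genes that were lower in GM-CSF, and for Fcgr2b as the 1 that was higher. They are from RefSeq, build GRCm38.p6, and run up to 250 bases before the start. Stretches annotated as exon were left out, and for Fcgr2b, whose window overlaps annotated exons over 203 of 250 bases, only 30 bases around a match are given. Capitals mark matches to 3 motifs searched on both strands: GAGGAA (the core bound by PU.1), GAAA, any 2 bases, GAAA (a repeat bound by interferon regulatory factors, IRF) and GGAA, any 2 bases, GAAA (a PU.1 and IRF composite).
Fcgr1, chr3:96293970-96294219, minus strand: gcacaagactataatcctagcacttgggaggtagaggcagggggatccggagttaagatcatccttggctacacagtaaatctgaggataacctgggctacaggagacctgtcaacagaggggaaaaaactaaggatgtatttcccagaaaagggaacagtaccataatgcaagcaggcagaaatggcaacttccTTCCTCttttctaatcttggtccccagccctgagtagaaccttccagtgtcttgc
Fcgr4, chr1:171018676-171018919, plus strand: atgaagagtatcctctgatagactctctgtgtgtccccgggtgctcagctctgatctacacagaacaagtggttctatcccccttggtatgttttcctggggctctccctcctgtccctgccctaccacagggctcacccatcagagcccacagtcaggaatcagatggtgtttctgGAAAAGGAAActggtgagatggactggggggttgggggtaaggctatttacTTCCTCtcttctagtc
Fcgrt, chr7:45103852-45104072, minus strand: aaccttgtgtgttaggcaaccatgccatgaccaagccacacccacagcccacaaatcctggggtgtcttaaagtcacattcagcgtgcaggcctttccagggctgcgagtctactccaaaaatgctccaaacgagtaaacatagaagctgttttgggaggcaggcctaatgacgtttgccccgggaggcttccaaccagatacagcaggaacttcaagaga
Fcgr2b, chr1:170976087-170976116, minus strand: gaccgtttctTTTCACTTCCccatttggac
Over the full window of 250 bases, the PU.1 core was found before Fcgr1, Fcgr3 and Fcgr4 and in 23.3% of all 32851 windows. The IRF repeat was found before Fcgr4 (2.98% of windows), and the composite before Fcgr2b (2.3% of windows). None of the 3 was found before Fcgrt or Fcer1g. A match is a description of the letters in this window.

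The first comparison asked how the Fc receptors differed between GM-CSF and M-CSF cultures. In GM-CSF, the high-affinity receptor Fcgr1, the activating receptor Fcgr4 and the FcRn gene Fcgrt fell, and the inhibitory receptor Fcgr2b rose. The abundant Fcgr3 and Fcer1g, which form the CD16 complex, did not pass the test. In an additive model of culture and genotype over all 13642 genes that reached 20 normalised reads in at least 1 library, 3 of the 6 members fell, beside 27.3% of all genes tested, and 1 of 6 rose, beside 29.8% of all genes. The shares are of a test (limma, Benjamini-Hochberg adjusted p under 0.05) in which culture moved 57.1% of genes, so the members' count of 4 is near the background. The median culture log2 fold was -0.50 over the 6 members and 0.02 over all genes.

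**Figure D1:**
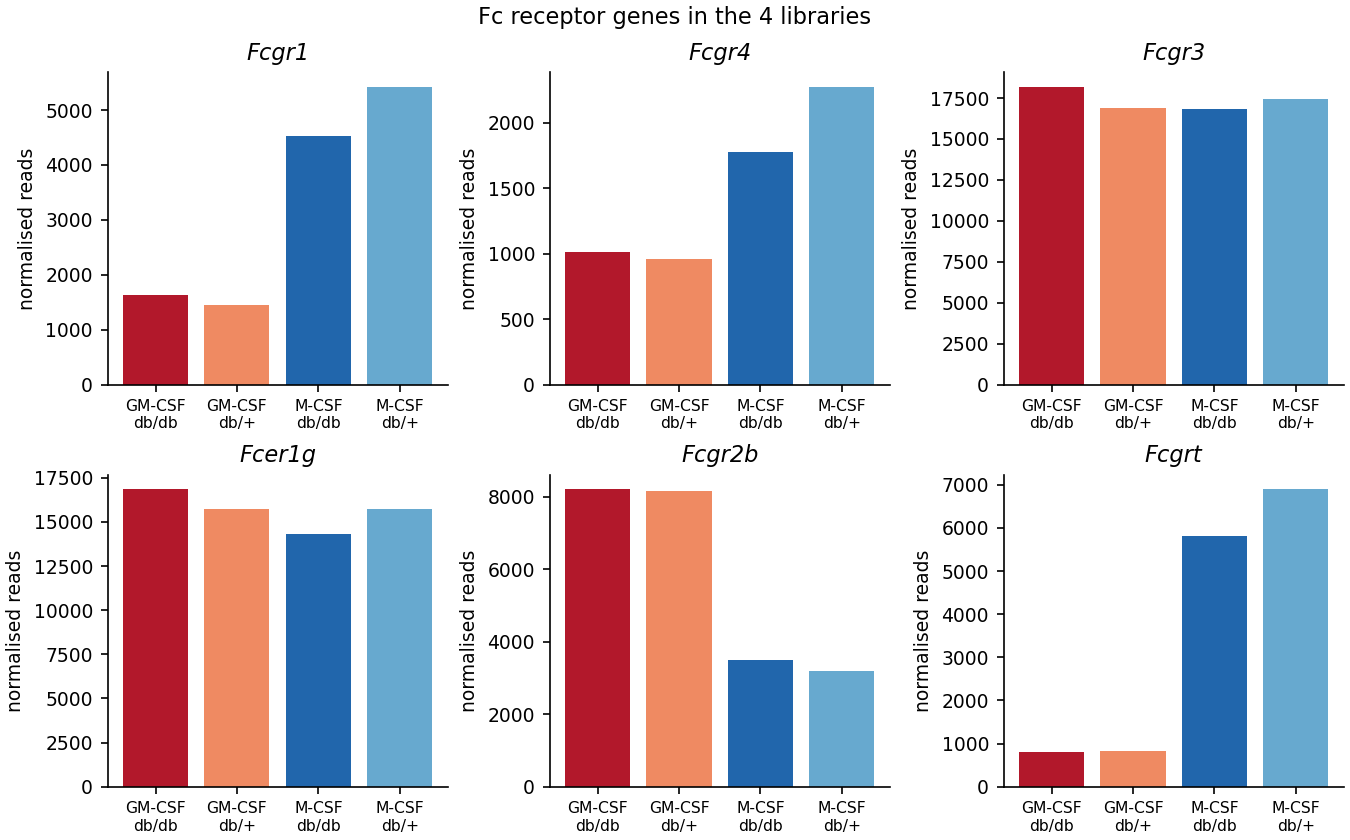
Normalised reads (linear axis from 0, 1 scale per panel) of the 6 Fc receptor genes in the 4 libraries, 1 bar per library and no error bar since each group has 1 library. Fcgr1, Fcgr4 and Fcgrt are lower in both GM-CSF libraries than in both M-CSF libraries, Fcgr2b is higher in both, and Fcgr3 and Fcer1g stay within 14299.6 to 18167 in all 4.

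Fcgrt had the largest difference of the 6. It was at 808 normalised reads in GM-CSF db/db and 830.0 in GM-CSF db/+, against 5811 in M-CSF db/db and 6893 in M-CSF db/+. Both GM-CSF libraries lay far below both M-CSF libraries. How many of all genes separate the cultures in this way was not counted. The ratio of GM-CSF over M-CSF was 0.139 in db/db (0.125 to 0.155) and 0.120 in db/+ (0.108 to 0.134), where the ranges are exact 95% intervals on read pairs. These intervals cover counting error only, since reads copied by PCR are not independent molecules. The additive model gave a log2 fold of -2.94 (SE 0.09, limma adjusted p = 1.70e-12), that is 7.69-fold lower in GM-CSF, and 4.08% of all genes tested had a lower log2 fold. B2m, the light chain that pairs with FcRn, was at 81190.3 and 76093 in the GM-CSF db/db and db/+ libraries, against 50805 and 56864 in the M-CSF db/db and db/+ libraries, a log2 fold of 0.55 (SE 0.13, limma adjusted p = 0.00194). With the deposited factors, the heavy and the light chain of FcRn thus moved in opposite directions. Scaling to each library's total moved the median of all genes by -0.33 in log2, and B2m was not tested with that scaling. Per kb of exon, Fcgrt stood at 0.00480 and 0.00526 of the B2m level in GM-CSF db/db and db/+, against 0.0552 and 0.0585 in M-CSF db/db and db/+. B2m also pairs with class I molecules, so its level is not that of FcRn alone.

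Among the activating receptors, Fcgr1 was at 1638 normalised reads in GM-CSF db/db and 1446 in GM-CSF db/+, against 4530.1 in M-CSF db/db and 5419 in M-CSF db/+. The cultures did not overlap, but the share of all genes without overlap was not counted. The ratio of GM-CSF over M-CSF was 0.362 in db/db (0.333 to 0.392) and 0.267 in db/+ (0.244 to 0.291). In the additive model the log2 fold was -1.68 (SE 0.10, limma adjusted p = 3.07e-09), a 3.21-fold lower level in GM-CSF. Fcgr4 was at 1008 and 956 in the GM-CSF db/db and db/+ libraries, against 1774 and 2270.4 in the M-CSF db/db and db/+ libraries. Its ratio was 0.568 in db/db (0.508 to 0.634) and 0.421 in db/+ (0.376 to 0.470), so the level was less than 2-fold lower in db/db and more than 2-fold lower in db/+. The additive model gave -1.03 (SE 0.11, limma adjusted p = 1.51e-06). How far the neutrophil lineage transcripts in the M-CSF libraries (13205 and 12256, given above) bear on Fcgr4 and Fcgr3, which neutrophils also express, was not tested. The part of these or of the stromal transcripts in the falls of Fcgrt and Fcgr1 was also not tested.

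Fcgr3 was the most abundant of the IgG receptor genes in every library. It was at 18167 normalised reads in GM-CSF db/db and 16892 in GM-CSF db/+, against 16827 in M-CSF db/db and 17456 in M-CSF db/+. The GM-CSF and M-CSF ranges overlap. Its culture log2 fold was 0.03 with a 95% interval of -0.17 to 0.23 (limma adjusted p = 0.793), so a difference beyond 1.17-fold higher or 0.890 of the M-CSF level lies outside the interval. Fcer1g, the shared signalling chain, was at 16839 and 15726 in the GM-CSF db/db and db/+ libraries, against 14299.6 and 15737 in the M-CSF db/db and db/+ libraries. Its GM-CSF db/+ library lay just below the M-CSF db/+ library, and the other GM-CSF library above both. The log2 fold was 0.12 with an interval of -0.09 to 0.32 (limma adjusted p = 0.311). The direction of both genes depends on the scaling: with values scaled to each library's total, Fcgr3 was at -0.31 (limma adjusted p = 0.00885) and Fcer1g at -0.22 (limma adjusted p = 0.0457). That scaling moved the median of all genes by -0.33 in log2. Relative to the median of all genes, Fcgr3 was at 0.01 with the deposited factors and 0.0042 with totals, and Fcer1g at 0.10 and 0.09.

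Fcgr2b, the inhibitory receptor, was at 8204 normalised reads in GM-CSF db/db and 8149 in GM-CSF db/+, against 3487 in M-CSF db/db and 3193 in M-CSF db/+. Both GM-CSF libraries were above both M-CSF libraries, and the libraries of each culture lay close together. Such separation was not counted over all genes. The ratio of GM-CSF over M-CSF was 2.35 in db/db (2.23 to 2.48) and 2.55 in db/+ (2.41 to 2.71). In the additive model the log2 fold was 1.29 (SE 0.08, limma adjusted p = 5.73e-09), and 8.35% of all genes tested had a higher one. Fcgr2b and Fcgr3 are close relatives, with 83.7% identity over 787 aligned coding bases in GENCODE M21 and a longest identical run of 129 bases. Of all stretches of 50 bases in their transcripts, 10.2% of those of Fcgr3 and 6.72% of those of Fcgr2b also occur in another gene, so how reads in the shared parts were assigned is uncertain. The other 4 genes shared 0 such stretches with another gene.

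Counted as at least 2-fold apart between single libraries, 1 member (Fcgr2b) was higher and 2 (Fcgr1 and Fcgrt) were lower in GM-CSF in db/db, where 11.3% and 15.8% of all genes were. In db/+ 1 was higher and 3 were lower, where 12.0% and 15.7% of all genes were, the added gene being Fcgr4. These counts have no replicate check. With values scaled to totals the count in db/db was 0 higher and 3 lower, beside 8.08% and 21.2% of all genes, with Fcgr2b at 1.84 and Fcgr4 at 0.444 of the M-CSF level. In db/+ it was again 1 higher and 3 lower, beside 8.51% and 20.6%.

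**Figure D2:**
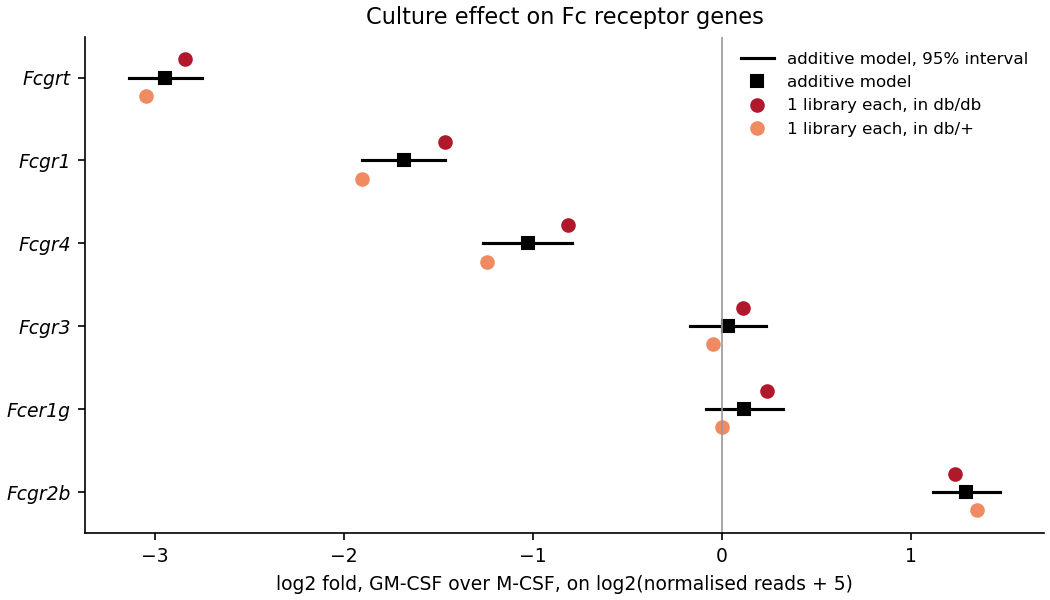
Log2 fold of GM-CSF over M-CSF, on log2(normalised reads + 5), for each Fc receptor gene. Squares are the additive model over 4 libraries with its 95% interval, and circles are the single-library folds in db/db and in db/+. Fcgrt at -2.94, Fcgr1 at -1.68 and Fcgr4 at -1.03 lie left of 0, Fcgr2b at 1.29 lies right of it, and the intervals of Fcgr3 and Fcer1g include 0.

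Levels of different genes were compared per kb of exon, with exon lengths from GENCODE M21, which may not be the annotation that the authors counted on. In both GM-CSF libraries the order from high to low was Fcer1g, Fcgr3, Fcgr2b, Fcgr4, Fcgr1, Fcgrt. In both M-CSF libraries it was Fcer1g, Fcgr3, Fcgrt, Fcgr1, Fcgr4, Fcgr2b. Fcer1g stood at 22513 and 21023 normalised reads per kb in GM-CSF db/db and db/+, against 19117 and 21039 in M-CSF db/db and db/+. Fcgr2b stood at 2153 and 2139 per kb in GM-CSF db/db and db/+, against 915 and 838 in M-CSF db/db and db/+, and so moved from the last place to the third. Its place rests on the exon lengths, 3.81 kb for Fcgr2b and 1.256 kb for Fcgr4. Not divided by length, Fcgr2b was at 3487 and 3193 in M-CSF db/db and db/+, above Fcgr4 at 1774 and 2270.4. Between the neighbours in these orders, the values of a culture's 2 libraries overlapped only for Fcgr1 (1749.8 and 2093 per kb in M-CSF db/db and db/+) and Fcgr4 (1412 and 1808 in the same libraries). The 2 libraries of a culture differ in genotype and are not replicates.

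Ratios within a library do not depend on the size factors. Per kb, Fcgr2b stood at 0.160 of the Fcgr3 level in GM-CSF db/db (95% counting interval 0.154 to 0.166) and 0.171 in GM-CSF db/+ (0.164 to 0.177), against 0.0733 in M-CSF db/db (0.0698 to 0.0769) and 0.0647 in M-CSF db/+ (0.0613 to 0.0681). Relative to the sum of the activating receptors Fcgr1, Fcgr3 and Fcgr4, Fcgr2b was at 0.144 and 0.154 in GM-CSF db/db and db/+, against 0.0585 and 0.0497 in M-CSF db/db and db/+. The balance of IgG receptor transcripts therefore lay further toward the inhibitory gene in both GM-CSF libraries. Fcgr1 made up 3.71% and 3.49% of the per-kb signal of the 4 Fcgr genes in GM-CSF db/db and db/+, against 10.6% and 11.8% in M-CSF db/db and db/+. Fcgr3 held the bulk in every library, at 79.0% and 78.4% in GM-CSF db/db and db/+, against 75.4% and 73.2% in M-CSF db/db and db/+. The chain gene Fcer1g stood at 1.51 and 1.52 times the summed activating receptors in GM-CSF db/db and db/+, against 1.22 and 1.25 times in M-CSF db/db and db/+. With 1 library per group these ratios have no test.

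**Figure D3:**
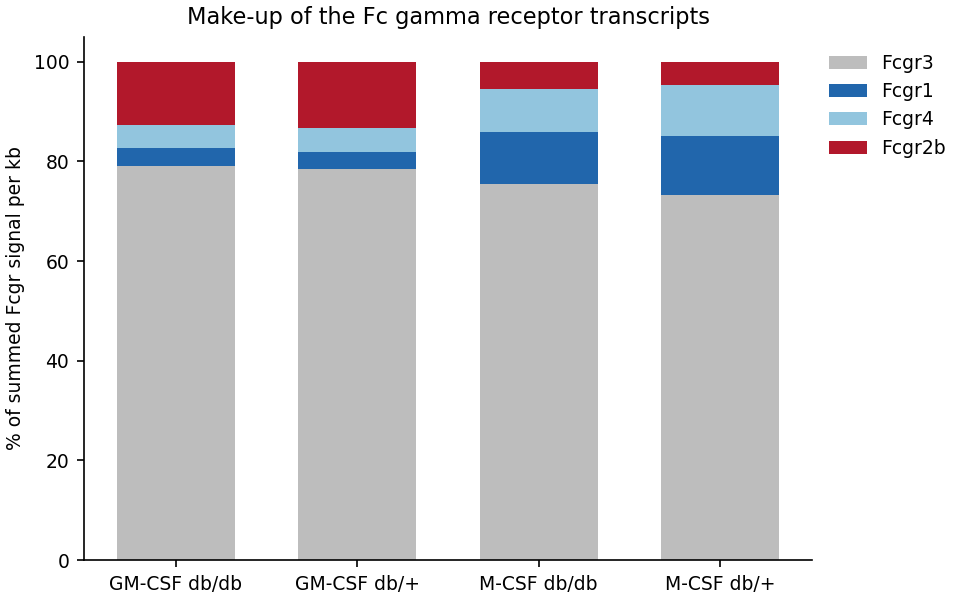
Share of each of the 4 IgG receptor genes in their summed normalised reads per kb of exon (%, stacked to 100), 1 bar per library. The Fcgr2b share is 12.6% and 13.4% in GM-CSF db/db and db/+, against 5.52% and 4.74% in M-CSF db/db and db/+, and Fcgr3 takes over 70% of each bar.

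The second comparison asked whether cells of diabetic db/db mice differed from db/+ cells. No member passed the test for genotype. The ratios of db/db over db/+ lay between 0.973 and 1.13 in GM-CSF and between 0.781 and 1.09 in M-CSF. For 4 of the 6 they lay on opposite sides of 1 in the 2 cultures, beside 49.6% of all genes in either order. In the additive model 0 of the 6 members passed for genotype, where 1 of 13642 genes did (0.00733% higher and 0% lower in db/db). At an unadjusted p under 0.05 both limma and edgeR's quasi-likelihood test also counted 0 members, beside 4.42% of all genes by limma and 6.05% by edgeR. The smallest unadjusted p was that of Fcgrt, at 0.138 by limma and 0.105 by edgeR. The genotype log2 folds lay between -0.14 for Fcgrt (95% interval -0.34 to 0.05) and 0.07 for Fcgr2b (-0.11 to 0.25).

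In M-CSF, Fcgr4 had the lowest ratio of db/db over db/+, at 0.781 (0.718 to 0.850), followed by Fcgr1 at 0.836 (0.793 to 0.882) and Fcgrt at 0.843 (0.804 to 0.884). Fcer1g stood at 0.909 (0.881 to 0.937), Fcgr3 at 0.964 (0.937 to 0.992) and Fcgr2b at 1.09 (1.02 to 1.17). The counting intervals left out 1 for all 6, but counting error was a small part of the spread between these libraries. The mean squared log ratio, taken from the median gene, was 17.4 times what sampling of pairs gives at 1000 to 10000 reads. Fcgr1, Fcgr4, Fcgr2b and Fcgrt lie in that range. It was 123 times at 10000 to 50000 reads, the range of Fcgr3 and Fcer1g. These multiples are ratios of variances. The median absolute log2 folds were 0.116 and 0.103 in the same ranges. None of the 6 was 2-fold apart, where 5.05% of all genes were higher and 0.777% lower. Beside these ratios, the stromal marker sum was at 70603 in M-CSF db/db against 25467 in M-CSF db/+, and the macrophage marker sum at 505328 against 535147. Their part in the genotype ratios was not tested. The within-library ratio of Fcgr1 to Fcgr3 per kb was 0.140 in M-CSF db/db (0.134 to 0.146) and 0.162 in M-CSF db/+ (0.155 to 0.168), and that of Fcgr4 to Fcgr3 was 0.113 (0.106 to 0.121) and 0.139 (0.131 to 0.148).

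In GM-CSF, the ratios of db/db over db/+ lay between 0.973 for Fcgrt (0.842 to 1.13) and 1.13 for Fcgr1 (1.02 to 1.26). Fcgr3 was at 1.08 (1.04 to 1.11), Fcer1g at 1.07 (1.04 to 1.11), Fcgr4 at 1.05 (0.922 to 1.204) and Fcgr2b at 1.01 (0.962 to 1.05). None was 2-fold apart, where 0.586% of all genes were higher and 0.476% lower. The mean squared log ratio in GM-CSF was 1.08 times what sampling of pairs gives at 200 to 1000 reads, the range of Fcgr4 and Fcgrt. This ratio of variances was 1.42 times at 1000 to 10000 reads (Fcgr1 and Fcgr2b) and 3.87 times at 10000 to 50000 reads (Fcgr3 and Fcer1g). It reached 59.7 times among genes with over 50000 reads, and the libraries were kept as separate samples. With their mean as 1 sample and no genotype term, the same 4 members passed for culture, beside 36.6% of all genes, with log2 folds of -2.94, -1.68, -1.03 and 1.29 for Fcgrt, Fcgr1, Fcgr4 and Fcgr2b (largest limma adjusted p = 0.00612, for Fcgr4). The spread in that fit comes from the M-CSF libraries and the prior, and the lone GM-CSF sample is assumed to vary like them.

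**Figure D4:**
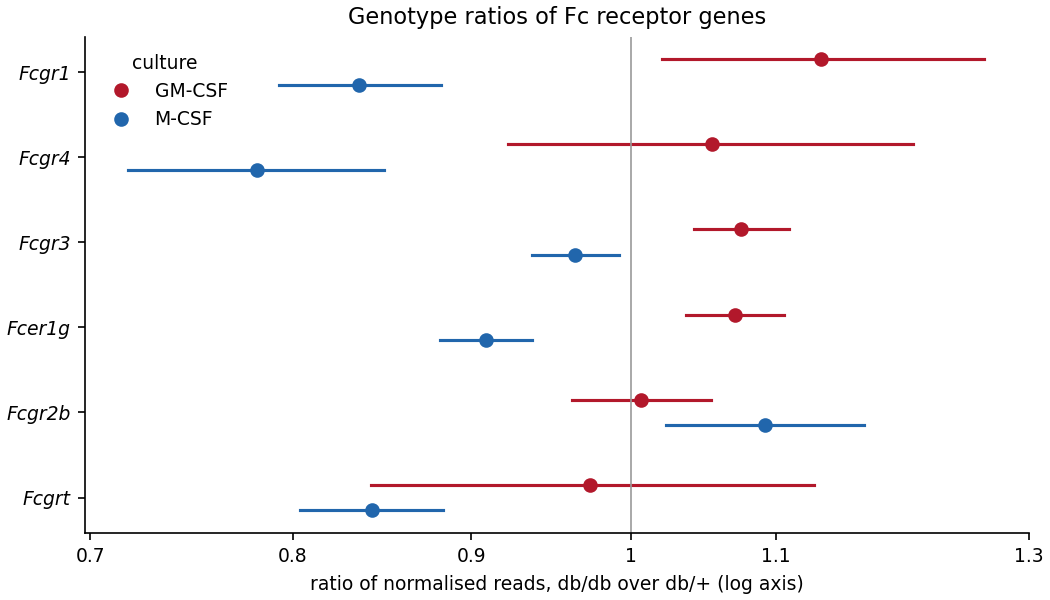
Ratio of normalised reads in db/db over db/+ (log axis) for each Fc receptor gene in GM-CSF and in M-CSF, 1 library per group, with exact 95% counting intervals on read pairs. In M-CSF 5 of the 6 ratios lie below 1, from 0.781 to 0.964, and in GM-CSF 5 of the 6 lie above it.

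Genes that work with the Fc receptors were followed in lists, of which B2m is described above. The 6 other lists hold receptors, signalling genes, partners, regulators and actin genes, each read beside the 29.8% of all genes that rose and the 27.3% that fell in GM-CSF. Of 14 other Fc receptors and Fc-binding proteins, 7 reached the level minimum, of which 1 rose and 5 fell, with a median culture log2 fold of -1.68. Fcrls, an Fc receptor-like molecule of macrophages and microglia, was at 1389 and 1519 in GM-CSF db/db and db/+, against 24955 and 21071 in M-CSF db/db and db/+, 15.7-fold lower (limma adjusted p = 1.21e-13). Trim21, the cytosolic antibody receptor, was at 520 and 492 in GM-CSF db/db and db/+, against 1277 and 1516 in M-CSF db/db and db/+ (limma adjusted p = 6.22e-08). Fcrlb was the member that rose, at 149 and 175 in GM-CSF db/db and db/+, against 6.1 and 10.5 in M-CSF db/db and db/+. Fcrl1 and Fcrl5, receptors of B cells, fell with log2 folds of -3.47 and -2.73. Beside them, the 6 B and plasma cell markers summed to 22.7 and 37.1 in GM-CSF db/db and db/+, with Ms4a1 at 0 in both, against 410.4 and 283 in M-CSF db/db and db/+, and their part in those falls was not tested. Fcer1a, the IgE-binding chain of mast cells and basophils, was at 0 in 3 libraries and at 5.2 in M-CSF db/db.

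The kinases and adaptors downstream of the ITAM moved in both directions. Of 22 activating signalling genes 8 rose, 8 fell and 6 did not pass, with a median of -0.07. Syk, the kinase that binds the Fcer1g ITAM, was at 12493 and 12158 in GM-CSF db/db and db/+, against 9954 and 11149 in M-CSF db/db and db/+, a log2 fold of 0.23 (limma adjusted p = 0.0442). Scaling to totals moved the median of all genes by -0.33, more than this rise, so the direction of Syk depends on the scaling. Among the Src family kinases that phosphorylate the ITAM, Fgr rose 6.72-fold, at 2222 and 2213 in GM-CSF db/db and db/+, against 288 and 369 in M-CSF db/db and db/+. Lyn fell, at 6271 and 6144 in GM-CSF db/db and db/+, against 13292 and 14690 in M-CSF db/db and db/+, and so did Fyn with a log2 fold of -1.57. The kinase Tec and the adaptor Lat2 rose with log2 folds of 1.44 and 1.39.

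Of 14 measured inhibitory signalling genes 4 rose and 7 fell, with a median of -0.31. Inpp5d, which encodes the phosphatase SHIP1 that Fcgr2b recruits, was at 5883 and 6020 in GM-CSF db/db and db/+, against 11683 and 13033 in M-CSF db/db and db/+, with a log2 fold of -1.05 (SE 0.09, limma adjusted p = 7.29e-08). It was thus lower in the cultures in which Fcgr2b was higher. Lilrb4, another ITIM receptor, rose 3.45-fold, at 49407 and 47662 in GM-CSF db/db and db/+, against 13352.5 and 14830.4 in M-CSF db/db and db/+.

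Of 10 other receptors that signal through the Fcer1g chain, 8 reached the minimum, of which 7 rose and 1 fell, with a median log2 fold of 1.94. The lectin receptor gene Clec4n (Dectin-2) was at 22324 and 21545 in GM-CSF db/db and db/+, against 3952 and 2940.0 in M-CSF db/db and db/+. Clec4e (Mincle) rose 4.08-fold, and Clec4d, a lectin receptor that works with it, fell with a log2 fold of -0.97. The 3 paired receptors Pira1, Pira2 and Pira6 rose with log2 folds of 1.60 to 2.56, but they are near-identical copies whose reads are uncertain. These copies were 3 of the 7 genes that rose. Pirb, a gene of the inhibitory signalling list, had no row, and how its reads were assigned is not known. Fcer1g itself did not pass the test.

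Of 8 transcription factors known at Fc receptor promoters 1 rose, 4 fell and 3 did not pass. Sfpi1, which encodes PU.1, was at 7353 and 6889 in GM-CSF db/db and db/+, against 6424 and 7069 in M-CSF db/db and db/+ (limma adjusted p = 0.468). Irf1 fell with a log2 fold of -1.62 and Irf8 with -0.64, while Cebpb rose with 2.50. Of 12 actin genes of the phagocytic cup 1 rose, 4 fell and 7 did not pass, with a median of -0.16. Coro1a fell with a log2 fold of -1.65, and Cdc42, Actr2 and Arpc2 lay between -0.02 and 0.08. In these pathway lists 0 genes passed limma for genotype.

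**Figure D5:**
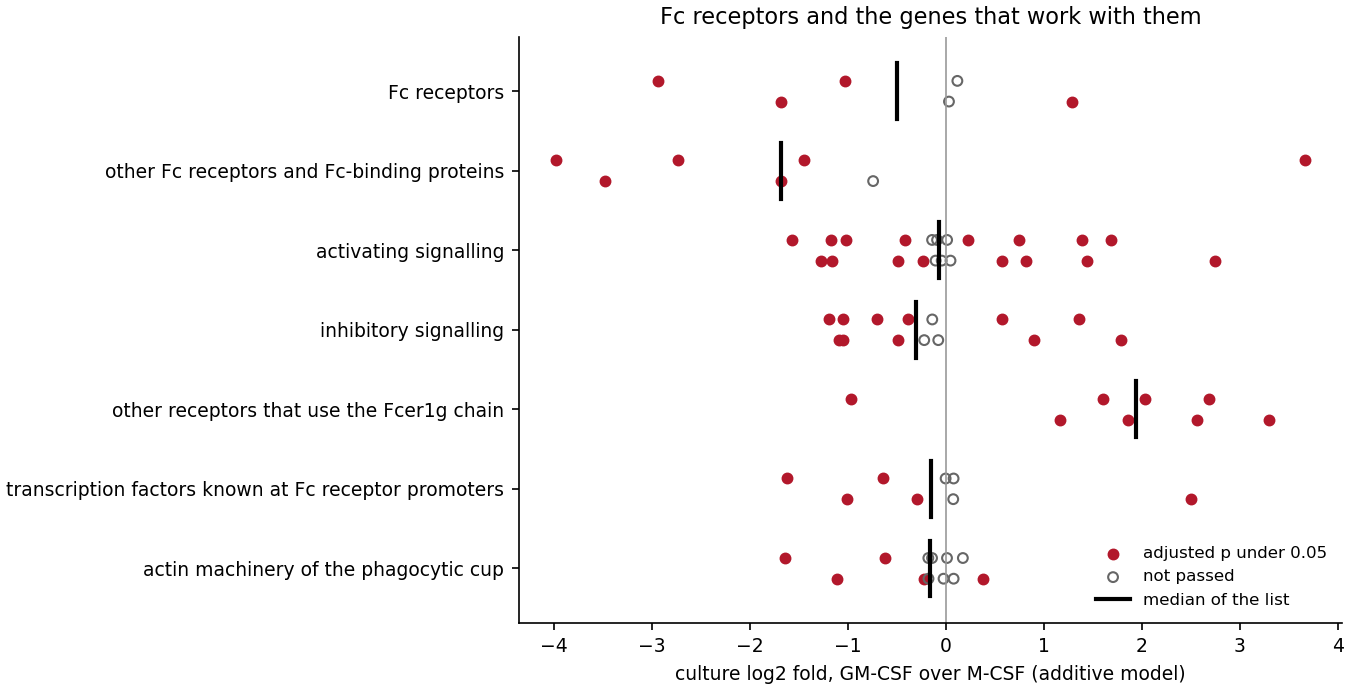
Culture log2 fold of GM-CSF over M-CSF (additive model) for every gene of the Fc receptor list and of 6 pathway lists that reached the level minimum. Filled points passed limma at an adjusted p under 0.05, open points did not, and the bar is the median of each list, from -1.68 for other Fc receptors to 1.94 for other receptors that use the Fcer1g chain.

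Each member's profile over the 4 libraries was set against those of 9496 genes with a mean of at least 200, by the largest difference in centred log2 level at any library. The 3 genes nearest to Fcgrt were Abcc3, Mnda and Csf3r, within 0.06 to 0.08. Those nearest to Fcgr1 were P2ry13, Itga4 and Ankrd13d (0.05 to 0.06), and those nearest to Fcgr4 were Fut10, Hist1h4n and Rhog (0.02 to 0.03). Fcgr2b lay nearest to Rps6kb1, Tor2a and Plek (0.02 to 0.03). Fcer1g lay nearest to Rpl32, Hspa8 and Sfpi1 (0.019 to 0.022), and Fcgr3 to Dhx35, Rnf187 and Zcchc9 (0.019 to 0.024). With 4 libraries many genes share any such profile.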

How the data were processed

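Ribosome-depleted total RNA was sequenced in read pairs on an Illumina instrument, per the labels' protocols. The deposited signal is a read count per gene divided by a size factor per library (TMM, by the authors' file names) and rounded to 1 decimal. TopHat 1.2.0, edgeR, mm8 and mm9 are named, without roles, per the submitters' processing notes. The labels name no counting tool, annotation or read length. Per-sample columns left unused numbered 0.

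Whole reads were recovered from the step of 1 read: at least 99.9% of values in each library were whole within 0.1 reads, and even counts prevailed among low ones, so intervals use read pairs. The count test on recovered reads called 7746 genes for culture and 103 for genotype. Genes reaching 20 in 1 library were kept (13642). The main test was limma 3.58.1 (variance trend, two-sided) on log2(value + 5) with culture and genotype. It has 1 residual degree of freedom and a prior of 12.9, so an error rests on how far the folds differ between the other factor's levels. An interaction could not be tested. The log scale understates the change of low genes. Design choices allowed for counts or normalised values, and the latter applied. edgeR 4.0.16 and DESeq2 1.42.0 size factors were alternatives. The fit was checked on simulated data with the same dispersion in every library and no genotype effect. Here the spread between genotypes was larger in M-CSF than in GM-CSF, so that check does not cover these data. The members and lists were chosen with earlier results of these data known. Genes named from lists were at least 2-fold apart between cultures in both genotypes or between genotypes in either culture, or among the 3 highest of their list. Fcer1a was named after its values were seen. Symbols in more than 1 row (38 symbols, 78 rows) were tested but not named. The values of 1 gene counted in a list are not reported here.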

Additional observations from a re-analysis of the deposited data

Results flagged for a closer look

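For 4 of the 6 Fc receptor genes the difference between db/db and db/+ went in opposite directions in the 2 cultures, higher in db/db in GM-CSF and lower in db/db in M-CSF. Of all 13642 genes, 49.6% went in opposite directions in either order, and the share in this order alone was not counted. The GM-CSF ratio of Fcgr4, at 1.05 (0.922 to 1.204), spanned 1 on counting error alone. Each culture has 1 library per genotype, so the differences between the cultures' folds were not tested. On the log2 scale, the GM-CSF fold minus the M-CSF fold was 0.44 for Fcgr1 (counting SE 0.09), 0.43 for Fcgr4 (0.11), 0.24 for Fcer1g (0.03) and 0.16 for Fcgr3 (0.03). These SE cover counting error only. Between the M-CSF libraries the variance was 17.4 times that of pair sampling at 1000 to 10000 reads, and 123 times at 10000 to 50000. Fcgr2b was higher and Fcgrt lower in db/db in both cultures, with differences of -0.12 and 0.21. The stromal marker sum moved with genotype in M-CSF (70603 in db/db against 25467 in db/+), and its part in these differences was not tested.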

How the results depend on the processing

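No paired analysis was possible because the labels number no replicates and each group has 1 library. The culture log2 folds of Fcgrt, Fcgr1, Fcgr4 and Fcgr2b kept their direction under all 14 alternatives and passed under all but 1. In 5 of the 14 (1 library left out, or GM-CSF averaged) a culture has 1 sample, which is assumed to vary like the other culture's. With no filter on low values they stood at -2.94, -1.68, -1.03 and 1.29 but did not pass (limma adjusted p = 0.0628, 0.0737, 0.106 and 0.0631), and 0 genes of all passed for culture, with 8129 at an unadjusted p under 0.05. There the prior fell to 0.838 degrees of freedom. Fcgr3 was at -0.31 and Fcer1g at -0.22 with values scaled to totals, and Fcgr3 at -0.013 by edgeR and between -0.021 and 0.084 with 1 library left out, the lowest without GM-CSF db/db. The genes called for culture numbered 7787, split into 4062 higher and 3725 lower in GM-CSF. With total scaling the split was 2291 higher and 6352 lower. With 1 library left out and no genotype term the count was 5020 to 7463, and with the GM-CSF libraries averaged, an alternative chosen after seeing the data, 4988.

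For genotype 1 gene passed. The count was 2 with a pseudocount of 1, 3 with a level minimum of 200, 103 by edgeR, and 0 with a pseudocount of 20, no filter, total scaling, no variance trend, no culture term or 1 library left out (0 to 0). With 1 library left out and no culture term, the genotype log2 folds ranged from -0.99 to 0.91 for Fcgr1, -0.76 to 0.48 for Fcgr4, -0.029 to 0.081 for Fcgr3, -0.14 to 0.10 for Fcer1g, -0.61 to 0.74 for Fcgr2b and -1.67 to 1.38 for Fcgrt, since the cultures are then unequally split between the genotypes. The genes at least 2-fold apart between cultures fell to 2225 in db/db and 2318 in db/+ with a level minimum of 200. Between genotypes in GM-CSF they numbered 560 and 1 with pseudocounts of 1 and 20, 316 with no filter and 13 with the minimum of 200, and in M-CSF 471 with a pseudocount of 20, 1366 with no filter and 334 with the minimum of 200. Of the members' single-library ratios, the 12 between cultures moved past their counting intervals with total scaling. In db/db those of Fcgr3 and Fcer1g then stood at 0.843 and 0.919, on the other side of 1, Fcgr2b at 1.84 was no longer 2-fold higher, and Fcgr4 at 0.444 was over 2-fold lower.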

Other observations

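Fcgr2b, Fcgr4, Fcgr3 and Fcer1g lie close together on mouse chromosome 1, in this order in RefSeq. The stretch from 3 protein-coding genes before Fcgr2b to 3 after Fcer1g holds 13 genes besides these members, of which 11 are in the files and 8 reached the level minimum. Of those 8, 3 rose and 2 fell in GM-CSF by limma, beside 29.8% and 27.3% of all genes. Fcrlb, near Fcgr2b, rose, and Pcp4l1, between Fcgr3 and Fcer1g, fell to 26.9 and 13.5 normalised reads in GM-CSF db/db and db/+, against 535 and 627 in M-CSF db/db and db/+. Neighbours of the 4 members thus differed in direction among themselves. Pcp4l1 was named after its values were seen.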
